A study of Mus musculus with 8 samples.

Results

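A set of 10 genes for amino acid carriers of the plasma membrane (Slc3a2, Slc7a5, Slc7a6, Slc7a1, Slc7a3, Slc1a4, Slc1a5, Slc38a1, Slc38a2 and Slc6a9) was followed in C2C12 myotubes kept at low or higher glucose, with and without knockdown of Baf60c. C2C12 cells are mouse myoblasts that can be differentiated into multinucleate myotubes, and Baf60c (gene Smarcd3) is a subunit of a chromatin remodelling complex. The myoblasts carried a retrovirus with a scrambled control hairpin (siScramble) or one against Baf60c (siBaf60c). They were differentiated and then kept for 12 h at 1 mM or 10 mM glucose, which gave 4 groups of 2 biological replicates on 8 Affymetrix Mouse Gene ST arrays. All groups thus share the line, the viral transduction and the differentiation, and the labels do not say whether any group was kept at another glucose concentration before those 12 h.

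The genes were listed by name as plasma membrane amino acid transporters, with earlier results of these data known. Of the 10, 9 were among the 22180 genes with a probe set annotated to them alone. Slc6a9 was read only through a probe set annotated to both Slc6a9 and Ccdc24, and the share of each gene in that signal was not resolved. Slc7a3 lay below the filter on low values, so its values are given without a test, and 9 members were tested among 13310 features.

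Cells take up amino acids through carriers that differ in substrate and in driving force. Slc3a2 encodes the CD98 heavy chain, a membrane glycoprotein that brings light chains such as those of Slc7a5 and Slc7a6 to the cell surface. Sodium-coupled carriers such as Slc38a2 accumulate small neutral amino acids, and exchangers such as Slc7a5 and Slc1a5 trade these for others. Many of these genes are known targets of ATF4, a transcription factor whose translation increases when cells lack amino acids or when the endoplasmic reticulum is stressed, and which binds composite C/EBP-ATF response elements.

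The RefSeq promoter table (build GRCm38.p6; 250 bases before to 50 bases after an annotated start) held 10 windows of 6 members: Slc3a2, Slc7a1, Slc7a6, Slc1a4, Slc38a2 and Slc6a9. Both strands were searched for TGATGNAA, the core of the C/EBP-ATF response element, for its fuller form TGATGCAAT, and for the E-box CACGTG. The fuller form contains the core, so the first 2 searches overlap. TGATGNAA was found in the windows of 1 of the 6 members, Slc1a4. It was in 3.97% of all 32851 windows, in at least 1 window of 4.51% of the 27025 genes with windows, and in 2.88% of the tested genes among these. TGATGCAAT and CACGTG were found in 0 of the 6. TGATGCAAT was in 0.192% of all windows, 0.222% of genes and 0.164% of tested genes, and CACGTG in 7.15%, 8.09% and 11.4%. The Slc1a4 match was on the reverse strand (read as TTGCATCA on the gene's strand) and filled bases 247 to 254 of the window, 4 bases on either side of the boundary at the start site. The windows of the 3 members with a single annotated start are shown, 5′ to 3′ on the gene's strand, with the match in capitals. They lie on the minus strand at chr11:20332664-20332963 for Slc1a4, chr19:8713848-8714147 for Slc3a2 and chr15:96699679-96699978 for Slc38a2.
Slc1a4: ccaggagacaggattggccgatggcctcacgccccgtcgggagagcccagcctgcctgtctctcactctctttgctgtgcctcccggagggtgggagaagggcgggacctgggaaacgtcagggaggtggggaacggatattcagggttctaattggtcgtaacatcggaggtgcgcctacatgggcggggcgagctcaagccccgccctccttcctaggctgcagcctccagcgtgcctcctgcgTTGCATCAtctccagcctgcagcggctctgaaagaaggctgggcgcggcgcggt
Slc3a2: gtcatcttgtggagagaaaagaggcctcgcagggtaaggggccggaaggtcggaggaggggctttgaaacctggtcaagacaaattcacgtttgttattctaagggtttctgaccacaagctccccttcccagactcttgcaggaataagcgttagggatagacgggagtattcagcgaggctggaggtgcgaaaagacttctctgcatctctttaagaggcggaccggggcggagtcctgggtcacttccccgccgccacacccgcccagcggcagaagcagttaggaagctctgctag
Slc38a2: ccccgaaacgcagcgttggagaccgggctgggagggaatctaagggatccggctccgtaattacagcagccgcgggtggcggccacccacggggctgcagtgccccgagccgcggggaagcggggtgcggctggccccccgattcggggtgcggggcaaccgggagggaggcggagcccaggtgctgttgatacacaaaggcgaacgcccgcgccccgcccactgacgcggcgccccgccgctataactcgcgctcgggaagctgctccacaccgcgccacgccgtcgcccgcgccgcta
The Slc1a4 window was 65% G and C, that of Slc3a2 56% and that of Slc38a2 73%, beside a median of 52.7% over all windows. Elements outside these 300-base windows were not searched, and a match is a match of letters only.

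The arrays were checked before the members were read. On the log2 scale, replicates correlated across genes at 0.987 to 0.99 and arrays of different groups at 0.939 to 0.984. The probe set shared by Smarcd3 and Chpf2 was at least 5.67-fold lower in knockdown cells at 1 mM and 3.95-fold lower at 10 mM (limma adjusted p = 0.00313 and 0.0171), which follows the labels. The first value is a bound because the knockdown arrays at 1 mM (3.01 and 2.77) lay around log2 3, below which signal above background was not shown, and each array was taken as no lower than 3. In knockdown cells the same probe set rose at 10 mM glucose, to 3.90 and 4.49 (at least 2.28-fold, adjusted p = 0.00442), and in control cells it went from 5.62 and 5.40 to 6.27 and 6.09 without passing the test (adjusted p = 0.06). The difference between the knockdown effects at the glucose levels was not called (interaction 0.64, adjusted p = 0.672). All 8 myotube markers (Myog, Ckm, Acta1, Myh3, Mymk, Des, Tnnt3 and Mylpf) were measured, and 3 of 4 markers each of macrophages, adipocytes and endothelium had means below 3.

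At 10 mM glucose most of these transporter mRNAs were lower than at 1 mM, in control and in knockdown myotubes. In control myotubes 8 of the 9 tested members fell and 0 rose, 7 of them by at least 2-fold, and 1 (Slc7a6) did not pass the test. For comparison, 12.1% of all tested features were called lower, 4.03% were called lower by at least 2-fold, and 13.2% were called higher. After knockdown 8 of 9 fell and 0 rose, 6 by at least 2-fold, beside 10.6% of all features called lower, 3.89% called lower by at least 2-fold and 14.6% higher. The members' median log2 change was -1.86 in control and -1.73 in knockdown cells, against -0.01 and 0.03 over all tested features. A call is an adjusted p under 0.05 in limma (Benjamini-Hochberg over all 13310 features). Values below are log2 expression, and changes are log2 differences ± SE with n = 2 arrays per group. No array from before the 12 h was analysed here, so the values do not separate a fall at 10 mM from a rise at 1 mM. In whole cultures, fewer cells of a type and less RNA per cell cannot be told apart. After median centring of every array, the share of calls in knockdown cells that were higher at 10 mM went from 57.9% to 46.9%, and the same number of members fell.

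**Figure D1:**
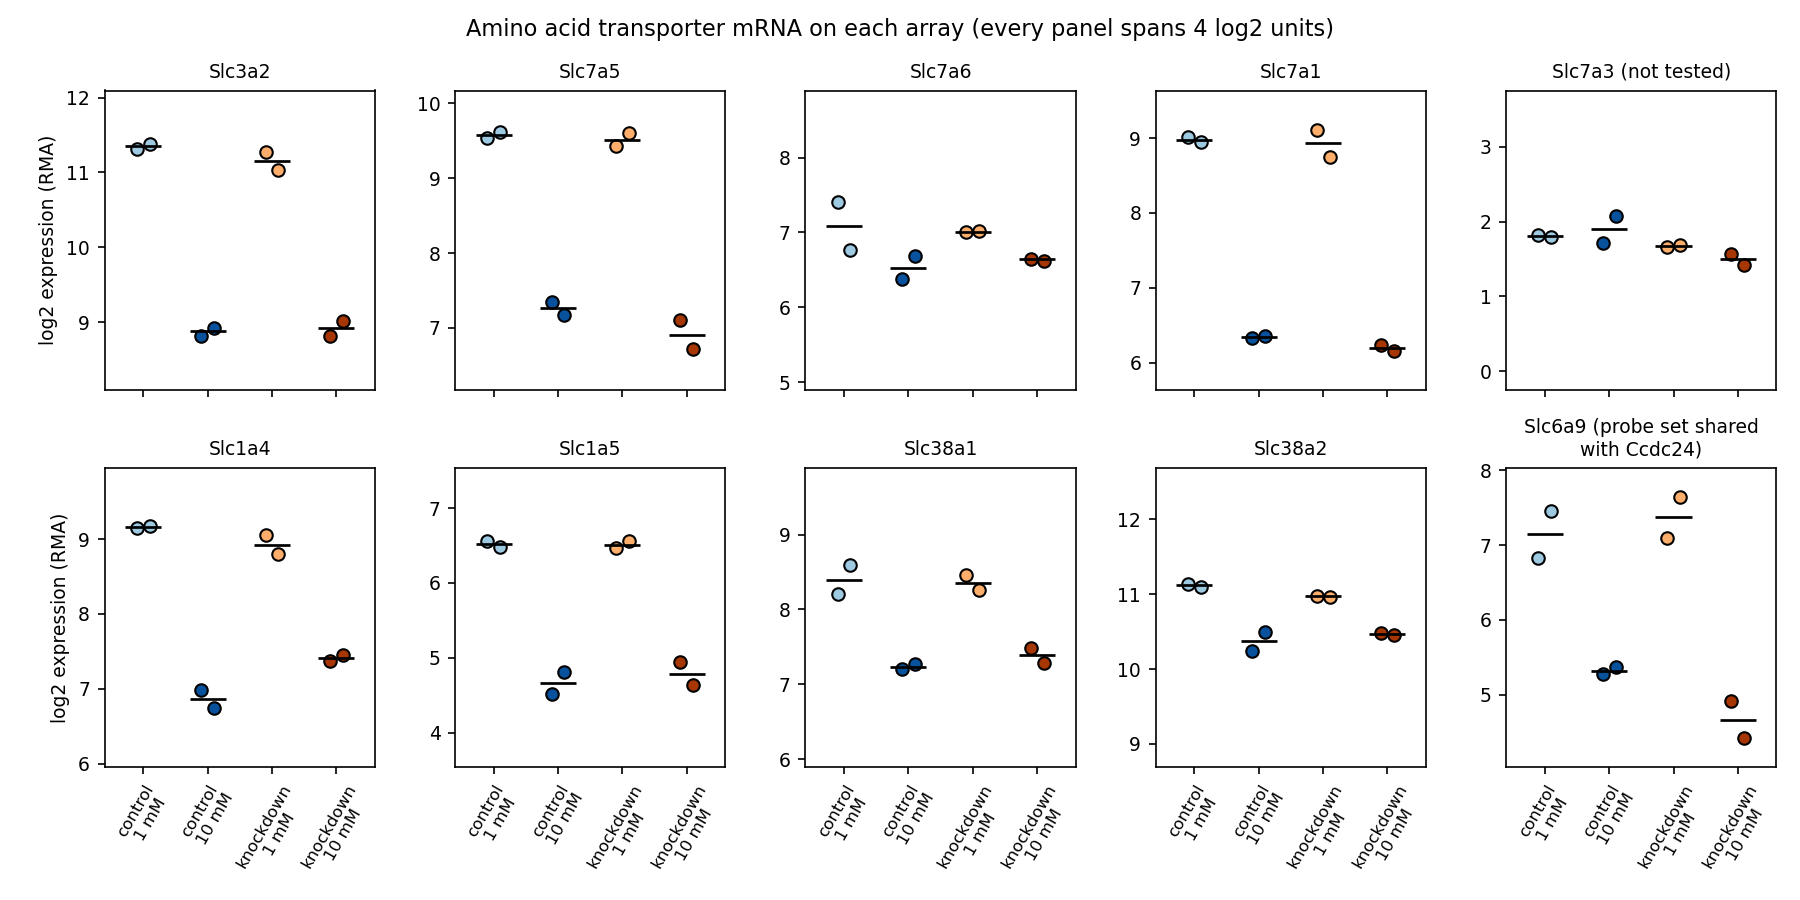
Log2 expression (RMA) of each of the 10 genes on each of the 8 arrays; points are arrays, black bars are group means, and every panel spans the same range on the log2 scale. Slc3a2 sits between 11.04 and 11.38 on the 1 mM arrays and between 8.81 and 9.02 on the 10 mM arrays, whereas Slc7a3 stays between 1.42 and 2.08 throughout.

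Slc3a2, the CD98 heavy chain, read 11.32 and 11.38 in control cells at 1 mM and 8.82 and 8.93 at 10 mM. In knockdown cells it read 11.27 and 11.04 at 1 mM and 8.81 and 9.02 at 10 mM. All 4 arrays at 1 mM lay above all 4 at 10 mM by over 2 log2 units, and at 10 mM the control and knockdown arrays overlapped. It fell 5.55-fold in control cells (-2.47 ± 0.14, adjusted p = 0.000116) and 4.72-fold in knockdown cells (-2.24 ± 0.14, adjusted p = 0.000154). In rank, these were the 48th and 70th most negative changes of the 13310.

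Its light chain partner Slc7a5 (LAT1), which exchanges large neutral amino acids such as leucine, moved by about as much. It read 9.53 and 9.62 in control cells at 1 mM and 7.34 and 7.17 at 10 mM. In knockdown cells it read 9.43 and 9.60, then 7.11 and 6.72. The fall was 5-fold in control cells (-2.32 ± 0.17, adjusted p = 0.00021) and 6.06-fold in knockdown cells (-2.60 ± 0.17, adjusted p = 0.000158). Its 95% confidence intervals, -2.71 to -1.93 and -2.99 to -2.21, overlapped each other and those of Slc3a2.

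Slc7a6 (y+LAT2), another light chain, which exchanges cationic for neutral amino acids, was the tested member with the smallest change. It read 7.41 and 6.76 in control cells at 1 mM, 6.38 and 6.69 at 10 mM, 7.01 and 7.02 in knockdown cells at 1 mM, and 6.65 and 6.62 at 10 mM. The 1 mM arrays were all above the 10 mM arrays, but the control replicates at 1 mM lay apart (SD 0.46), and the lower of them was close to the highest 10 mM array. Its changes of -0.55 ± 0.22 (adjusted p = 0.108) in control cells and -0.38 ± 0.22 (adjusted p = 0.26) in knockdown cells did not pass the test. The control change passed with an intensity-dependent prior in limma (adjusted p = 0.0415, and 0.0396 with a robust fit as well) and without control replicate 2 at 1 mM (-0.88, adjusted p = 0.0271). Its intervals, -1.07 to -0.04 and -0.89 to 0.14, did not overlap those of Slc7a5.

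The remaining light chains that pair with Slc3a2 were read from a wider list. Slc7a11, the cystine and glutamate exchanger, read 8.84 and 8.76 in control cells at 1 mM and 2.57 and 2.95 at 10 mM, and 8.28 and 8.42, then 2.08 and 2.28, in knockdown cells. This brightest probe set of the gene fell at least 55.7-fold in control and at least 40.8-fold in knockdown cells (adjusted p = 8.7e-06 and 8.49e-06), bounds because its 10 mM signal was not shown to be above background. Where the probe sets of a gene were averaged, its log2 changes were -3.06 and -3.53, against -6.04 and -6.17 for the brightest alone. The rest of its probe sets thus fell less on average, and the bounds hold for the brightest alone. Slc7a7 (y+LAT1) was at 3.33 and 3.75 in control cells at 1 mM and at 4.66 and 5.06 at 10 mM, but its change of 1.32 ± 0.48 did not pass (adjusted p = 0.0839). In knockdown cells its change was 1.00 ± 0.48 (adjusted p = 0.172). Slc7a8 and Slc7a10 read between 1.51 and 2.49 on all arrays and were not tested. Among light chains, then, Slc7a5 and Slc7a11 fell with the heavy chain, and Slc7a6 and Slc7a7 were not called.

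**Figure D2:**
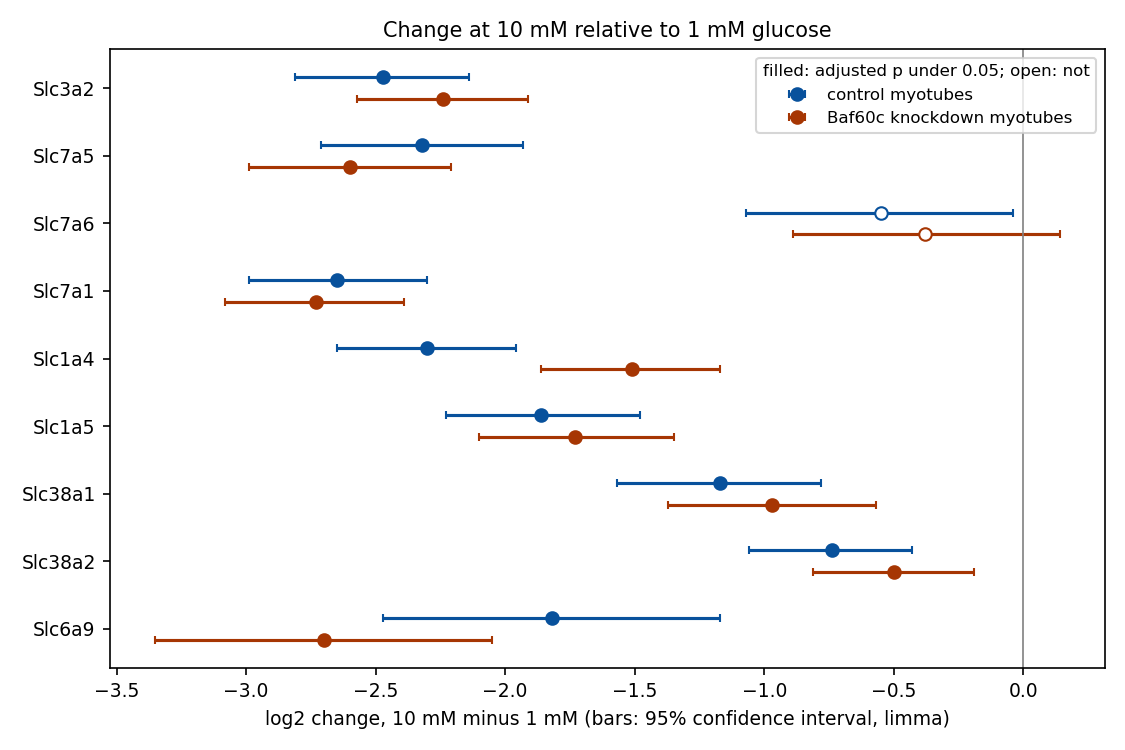
Log2 change at 10 mM relative to 1 mM glucose for the 9 tested genes in control and in Baf60c knockdown myotubes; points are limma estimates, bars are 95% confidence intervals, filled points passed an adjusted p of 0.05 and open points did not. Slc7a1 lies at -2.65 and -2.73, Slc38a2 at -0.74 and -0.50, and Slc7a6 is open in both.

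Slc7a1 (CAT1), the main carrier of arginine and lysine in many cells, which needs no heavy chain, had the largest change of the tested members. It read 9.01 and 8.95 in control cells at 1 mM and 6.33 and 6.35 at 10 mM. Knockdown cells gave 9.11 and 8.75 at 1 mM and 6.23 and 6.16 at 10 mM. It fell 6.26-fold in control (-2.65 ± 0.15, adjusted p = 0.000113) and 6.65-fold in knockdown cells (-2.73 ± 0.15, adjusted p = 8.85e-05), in rank the 40th and 31st most negative changes. The groups at different glucose did not overlap, as was so for 9 of 9 tested members in both cell types, beside 64.4% and 64.2% of all tested features.

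Of its relatives, Slc7a3 (CAT3), a cationic carrier known mainly from brain, read 1.82 and 1.79 in control cells at 1 mM and 1.72 and 2.08 at 10 mM, and 1.66 and 1.69, then 1.57 and 1.42, in knockdown cells. Signal above background was not shown for it in any group, so these values do not bear on whether it changed. Slc7a2 (CAT2), picked as a relative after its values were seen, read 5.27 and 4.98, then 5.85 and 5.68, in control cells (0.64 ± 0.32, adjusted p = 0.183). In knockdown cells it rose from 5.37 and 4.29 to 6.21 and 6.29 (1.42 ± 0.32, adjusted p = 0.0156). That call was lost without either knockdown replicate at 10 mM (adjusted p = 0.0665 and 0.0756), and the change was 0.88 without knockdown replicate 2 at 1 mM.

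The exchangers of small neutral amino acids both fell. Slc1a4 (ASCT1), which carries alanine, serine, cysteine and threonine, read 9.15 and 9.17 in control cells at 1 mM and 6.98 and 6.74 at 10 mM. In knockdown cells it read 9.05 and 8.80 at 1 mM and 7.37 and 7.45 at 10 mM. At 10 mM both knockdown arrays were above the control arrays and at 1 mM both were below them, an opposite separation that 5.28% of all tested features showed. The fall was 4.93-fold in control (-2.30 ± 0.15, adjusted p = 0.000154) and 2.85-fold in knockdown cells (-1.51 ± 0.15, adjusted p = 0.000559). Of the 6 members whose promoter windows were searched, Slc1a4 is the one with the response element core, shown above.

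Slc1a5 (ASCT2), a glutamine exchanger, read 6.56 and 6.48 in control cells at 1 mM and 4.52 and 4.81 at 10 mM, and 6.47 and 6.56, then 4.94 and 4.64, in knockdown cells. It fell 3.62-fold (-1.86 ± 0.16, adjusted p = 0.00044) and 3.31-fold (-1.73 ± 0.16, adjusted p = 0.000494). A second, dimmer probe set of Slc1a5 read 4.50 and 4.47 in control cells at 1 mM and 3.59 and 3.26 at 10 mM, with 4.09 the highest and 2.44 the lowest of the knockdown arrays. It too was lower at 10 mM, by a smaller amount (-1.06 with adjusted p = 0.024 in control and -1.19 with adjusted p = 0.0149 in knockdown cells). Its 10 mM arrays, at 3.27 and 2.44 in knockdown cells, lay around the bound of log2 3, so the size of its fall is not firmly set.

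The sodium-coupled carriers Slc38a1 (SNAT1) and Slc38a2 (SNAT2), which bring in glutamine and other small neutral amino acids, fell less. Slc38a1 read 8.21 and 8.59 in control cells at 1 mM and 7.20 and 7.27 at 10 mM, and 8.46 and 8.26, then 7.49 and 7.29, in knockdown cells. It fell 2.25-fold (-1.17 ± 0.17, adjusted p = 0.00292) and 1.96-fold (-0.97 ± 0.17, adjusted p = 0.0056). Slc38a2 read 11.14 and 11.09 in control cells at 1 mM and 10.24 and 10.50 at 10 mM. In knockdown cells it went from 10.98 and 10.96 to 10.48 and 10.46. The order of the groups was the same for both genes, highest in both 1 mM groups and lowest in both 10 mM groups. Slc38a2 fell 1.68-fold in control cells (-0.74 ± 0.13, adjusted p = 0.00684) and 1.41-fold in knockdown cells (-0.50 ± 0.13, adjusted p = 0.0316). The knockdown call was lost without the filter on low values (adjusted p = 0.0634), without either control replicate at 1 mM (0.0501 for each), without either knockdown replicate at 1 mM (0.108 and 0.0964) and without either at 10 mM (0.12 and 0.13). The change itself stayed between -0.60 and -0.49 in all alternatives. The 95% confidence intervals of Slc38a2 (-1.06 to -0.43 and -0.81 to -0.19) did not overlap those of Slc3a2, Slc7a5, Slc7a1, Slc1a4 or Slc1a5 in the same cells. For Slc1a5 this rests on the brighter probe set. The dimmer one changed by -1.06 in control and -1.19 in knockdown cells, close to the -1.17 and -0.97 of Slc38a1.

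The probe set shared by Slc6a9 (GlyT1, a sodium and chloride coupled glycine carrier) and Ccdc24 read 6.83 and 7.46 in control cells at 1 mM and 5.28 and 5.37 at 10 mM. In knockdown cells it read 7.10 and 7.64 at 1 mM and 4.92 and 4.43 at 10 mM, the lowest of the 4 groups. It was 3.54-fold lower at 10 mM in control (-1.82 ± 0.28, adjusted p = 0.00359) and 6.49-fold lower in knockdown cells (-2.70 ± 0.28, adjusted p = 0.000668). The replicates of this probe set lay further apart than those of most members, as its larger SE shows.

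Markers of muscle and of other cells also differed between the glucose levels. Of 8 myotube markers, 5 rose in control and 8 in knockdown cells, while their summed level (log2 of the sum of linear values) was 13.32 to 13.34 in control cells at 1 mM, 13.81 to 13.97 in control cells at 10 mM, 12.28 to 12.40 in knockdown cells at 1 mM and 13.23 to 13.31 in knockdown cells at 10 mM. Of 4 fibroblast markers (Pdgfra, Dpt, Dcn and Lum), 4 rose in control and 3 in knockdown cells, with summed levels of 11.06 to 11.11, 12.01 to 12.15, 10.79 to 10.84 and 11.71 to 11.81 in the same order of groups. In control cells at 1 mM Lum read 1.80 and 2.37, where signal above background was not shown. Over all tested features 13.2% were called higher in control and 14.6% in knockdown cells. Of 4 markers of undifferentiated myoblasts, Cd34 rose and Myf5 fell in both cell types and Vcam1 rose in knockdown cells, and the summed level was 8.99 to 9.16, 9.21 to 9.45, 9.01 to 9.10 and 9.21 to 9.34. Of 4 macrophage markers, 2 were tested (Ptprc and Cd68). Of these, 0 were called in control cells and both fell in knockdown cells. Ptprc went there from 3.13 and 3.03 to 2.62 and 2.21, where signal above background was not shown. The summed level of the 4 was 4.93 to 5.32, 4.62 to 4.64, 5.24 to 5.34 and 4.56 to 4.90, and the defining markers Adgre1 and Csf1r had group means of 1.46 to 1.99 and 1.68 to 2.38. The part of these shifts in the transporter changes was not tested.

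Knockdown of Baf60c was then compared with control at each glucose level, which asks whether the transporters depend on Baf60c. Of the 9 tested members, 0 were called at 1 mM, where 1.5% of all tested features were called, and 0 at 10 mM, where 1.13% were. At an unadjusted p under 0.05 there were 0 members at 1 mM and 2 at 10 mM, beside 2116 (15.9%) and 1809 (13.6%) of all tested features. The changes at 1 mM ran from -0.24 for Slc1a4 to 0.22 for Slc6a9, with a median of -0.06, and the 95% confidence intervals of all 9 lay between -0.59 and 0.87. For Slc3a2 the interval was -0.53 to 0.14, for Slc7a5 -0.46 to 0.33, for Slc7a1 -0.40 to 0.30 and for Slc1a5 -0.38 to 0.37, so a change of 2-fold lay outside each of these. For Slc1a5 that covers the brighter probe set alone. The dimmer one changed by -0.44 at 1 mM and -0.57 at 10 mM, and limma called neither (adjusted p = 0.469 and 0.403). At 10 mM the intervals of the 9 members lay between -1.30 and 0.89. The arrays of control and knockdown cells did not overlap for 3 members at 1 mM (Slc3a2, Slc1a4 and Slc38a2) and for 5 at 10 mM (Slc7a1, Slc7a5, Slc1a4, Slc38a1 and Slc6a9), beside 47.1% and 45.6% of all tested features. Over the same comparisons 6 and 3 of the 8 myotube markers fell, and the 3 at 10 mM (Myh3, Ckm and Myog) were among the 6 at 1 mM.

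**Figure D3:**
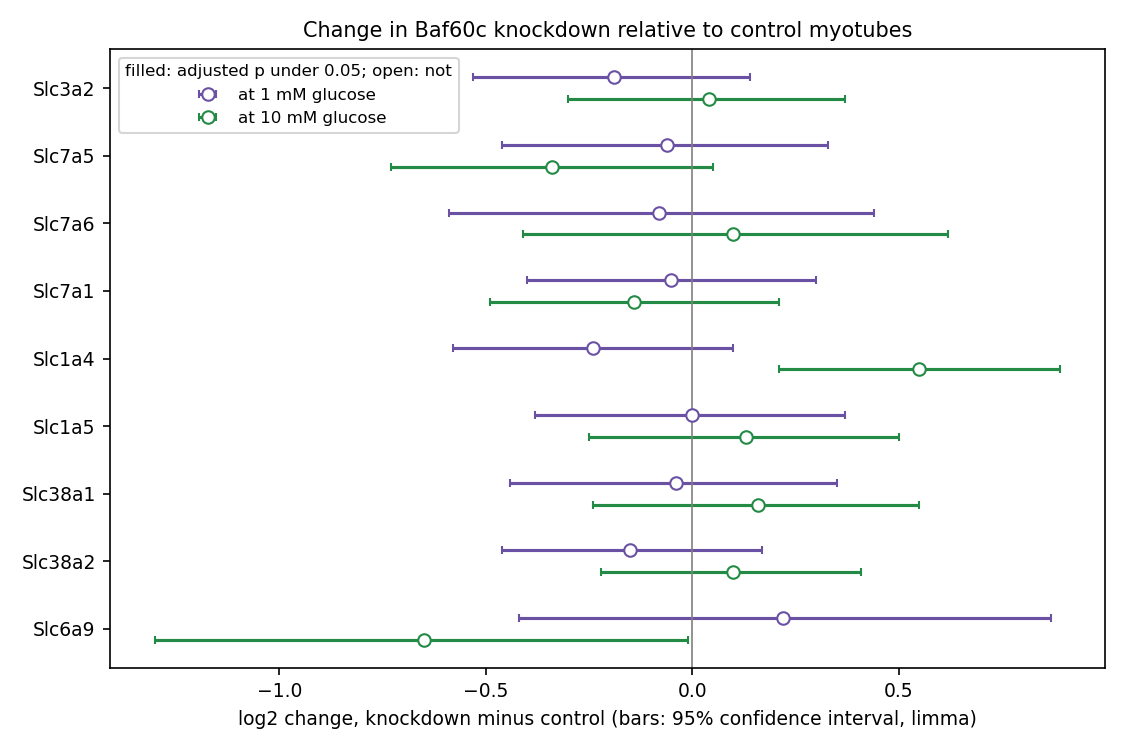
Log2 change in Baf60c knockdown relative to control myotubes for the 9 tested genes at 1 mM and at 10 mM glucose; points are limma estimates and bars are 95% confidence intervals, and every point is open because 0 passed an adjusted p of 0.05. Slc1a4 at 10 mM (0.55) and Slc6a9 at 10 mM (-0.65) lie farthest from 0.

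The members farthest from 0 in this comparison were Slc1a4 and Slc6a9 at 10 mM. Slc1a4 was higher in knockdown cells by 0.55 ± 0.15 (interval 0.21 to 0.89, adjusted p = 0.157), and it passed with an intensity-dependent prior (adjusted p = 0.0252, and 0.0251 with a robust fit). The Slc6a9 probe set was lower by 0.65 ± 0.28 (interval -1.30 to -0.01, adjusted p = 0.362). Slc7a5 differed by -0.34 ± 0.17 (interval -0.73 to 0.05, adjusted p = 0.441). The number of features called over the whole array at 10 mM was itself unsteady: it was 151, but 0 without control replicate 2, knockdown replicate 1 or knockdown replicate 2 at 10 mM.

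The difference between the glucose responses of knockdown and control cells was tested directly as an interaction. It was called by limma for 0 of 9 members and for 0% of all tested features. At an unadjusted p under 0.05 there were 1 member and 1049 features (7.88% of all tested). With the intensity-dependent prior, 1 feature of the whole array was called and 0 members. The difference (knockdown minus control) was 0.79 ± 0.21 for Slc1a4 (interval 0.30 to 1.28, adjusted p = 0.473), whose fall was the smaller one in knockdown cells. For the Slc6a9 probe set it was -0.88 ± 0.39 (interval -1.79 to 0.04, adjusted p = 0.645). For the other 7 it lay between -0.28 for Slc7a5 and 0.24 for Slc38a2, with a median over all 9 of 0.18. The interval was -0.24 to 0.70 for Slc3a2, -0.58 to 0.40 for Slc7a1 and -0.40 to 0.66 for Slc1a5, so these data left room for differences of that size.

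The wider set of amino acid transporters was read from lists that do not share genes with the 10 and that, like them, were drawn up with earlier results known. Of 36 further plasma membrane transporters listed, 35 were measured and 12 passed the filter. In control cells 1 of the 12 fell, 3 rose and 8 did not pass; in knockdown cells 1 fell, 4 rose and 7 did not pass. The medians were 0.28 and 0.37. Over all tested features, 12.1% were called lower and 13.2% higher in control cells, and 10.6% and 14.6% in knockdown cells. Slc7a11 was the gene that fell in both. Slc1a3, a glutamate and aspartate carrier, rose 2.81-fold from 5.02 and 4.87 to 6.45 and 6.42 in control cells (adjusted p = 0.000459) and 3.88-fold after knockdown (adjusted p = 0.00017). The taurine carrier Slc6a6 rose by 0.85 ± 0.14 and 0.68 ± 0.14, and Slc43a2, a sodium-independent carrier of large neutral amino acids, by 0.61 ± 0.15 and 1.00 ± 0.15. The Slc6a6 call in knockdown cells was lost without either knockdown replicate at 1 mM or knockdown replicate 2 at 10 mM (adjusted p = 0.0502, 0.0509 and 0.0822). The Slc43a2 call in control cells was lost without either control replicate at 1 mM or control replicate 2 at 10 mM (adjusted p = 0.0781, 0.094 and 0.112). Against knockdown, 0 of the 12 were called at either glucose level, beside the 1.5% and 1.13% above.

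Of 7 tested carriers of lysosomes and vesicles, 4 fell in control and 3 in knockdown cells (12.1% and 10.6% of all features were called lower) and 0 rose (13.2% and 14.6% higher), at medians of -0.46 and -0.47. With 7 genes, 0 called higher is near those background shares. Slc38a7, a lysosomal glutamine carrier, read 9.26 and 9.07 in control cells at 1 mM and 7.49 and 7.92 at 10 mM, and fell by 1.46 ± 0.18 and 1.36 ± 0.18. Slc15a4, which carries histidine and small peptides, fell by 0.56 ± 0.16 and 0.78 ± 0.16. In control cells Slc66a1, a cationic amino acid exporter of lysosomes, fell by 0.64 ± 0.16 and Slc38a9, an arginine-sensing carrier, by 0.46 ± 0.13. In knockdown cells the cystine exporter gene Ctns fell by 0.51 ± 0.13. The Slc38a7 calls held in all 19 alternatives. In control cells the call of Slc38a9 was lost without any 1 of the 8 arrays, that of Slc15a4 without any but control replicate 2 at 10 mM, and that of Slc66a1 without control replicate 1 at 1 mM or either control replicate at 10 mM. In knockdown cells the call of Ctns was lost without any of the 4 knockdown arrays, and that of Slc15a4 without knockdown replicate 1 at 1 mM or either at 10 mM.

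A last list held genes that act ahead of the growth kinase complex mTORC1 in sensing amino acids, together with Atf4 and Eif2ak4, the gene of the kinase GCN2 that raises ATF4 translation when amino acids are lacking. Of 29 tested, 6 fell and 3 rose in control cells and 5 fell and 3 rose in knockdown cells, at medians of -0.15 and -0.08. Without Atf4 and Eif2ak4, 5 of 27 fell and 3 rose in control cells and 4 fell and 3 rose in knockdown cells. The shares called higher were no larger than the 13.2% and 14.6% of all features, and those called lower stood beside 12.1% and 10.6%. Sesn2, a leucine sensor that is also a known ATF4 target, read 8.44 and 8.34 in control cells at 1 mM and 5.12 and 5.67 at 10 mM (-2.99 ± 0.20) and fell by 2.87 ± 0.20 in knockdown cells. Its paralogs rose, Sesn1 by 1.50 ± 0.23 and 1.18 ± 0.23 and Sesn3 by 1.13 ± 0.15 in both. Castor2, a paralog of an arginine sensor, rose by 1.31 ± 0.13 and 0.90 ± 0.13. Atf4 mRNA fell by 1.43 ± 0.24 (adjusted p = 0.00498) and 1.57 ± 0.24 (adjusted p = 0.00307), from 9.69 and 9.01 to 7.73 and 8.11 in control cells and from 9.36 and 9.54 to 7.87 and 7.88 in knockdown cells.

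**Figure D4:**
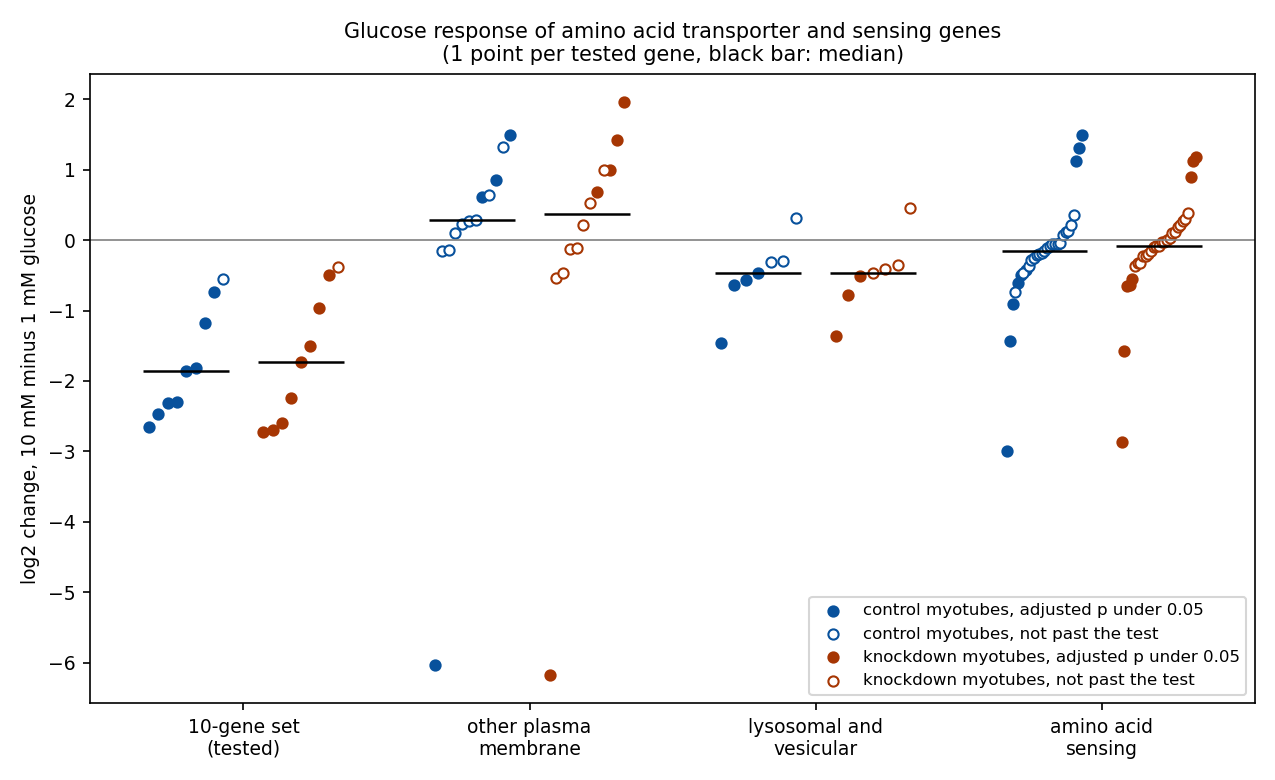
Log2 change at 10 mM relative to 1 mM glucose for each tested gene of the 10-gene set and of 3 wider lists, in control and knockdown myotubes; filled points passed an adjusted p of 0.05, open points did not, and black bars are medians. The set's medians are -1.86 and -1.73, those of other plasma membrane transporters 0.28 and 0.37, and the lowest points, plotted at -6.04 and -6.17, are Slc7a11, whose 10 mM signal was not shown to be above background.

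Among themselves the members fell into profiles of differing depth. Likeness was measured as the root mean square difference between log2 profiles over the 8 arrays, each centred on its own mean. Slc38a2 and Slc7a6 were nearest (0.172), then Slc3a2 and Slc7a1 (0.204), Slc7a1 and Slc7a5 (0.213), and Slc3a2 and Slc7a5 (0.245). The pair Slc1a4 and Slc1a5 stood at 0.258 and the pair Slc38a1 and Slc38a2 at 0.263. Slc7a1 and Slc7a6 were farthest apart (1.13). The measure is small wherever 2 genes differ by a like amount between the glucose levels.

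By the same measure, the gene outside the set nearest to Slc7a1 was Hspa5, the endoplasmic reticulum chaperone BiP (0.0753), with changes of -2.78 in control and -2.89 in knockdown cells. The endoplasmic reticulum gene Creld2 (0.129) and Shmt2, the mitochondrial serine hydroxymethyltransferase (0.142), came next. Slc7a5 was nearest to Creld2 (0.147), the transcription factor gene Atf5 (0.162) and Cyb5r1 (0.18). Slc3a2 was nearest to Fam171b (0.156), Ifrd1 (0.16) and the spermidine synthase gene Srm (0.162).

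Slc1a4 was nearest to Trim46 (0.162), Taf15 (0.171) and Gclm (0.174), which encodes the modifier subunit of glutamate-cysteine ligase. Slc1a5 was nearest to Dennd4a (0.098), Taf15 (0.121) and the glutamyl-prolyl-tRNA synthetase gene Eprs (0.124). Slc38a1 was nearest to Ears2 (0.0611), the mitochondrial glutamyl-tRNA synthetase gene, and to Bysl (0.0849) and Zc3hav1 (0.0889). Slc38a2 was nearest to Brd2 (0.0395), Pfdn6 (0.0532) and Agfg1 (0.0579), and Slc7a6 to 1500009L16Rik (0.07), Pwwp2a (0.0895) and Brpf3 (0.0951). The Slc6a9 probe set was nearest to the member Slc7a5 (0.254), and outside the set it had no neighbour nearer than Klf15 (0.292), Phgdh (0.294), the first enzyme of serine synthesis, and Herpud1 (0.298). Klf15 had a mean of 3.20 over the 8 arrays and changes of -2.21 in control and -2.71 in knockdown cells. Its 10 mM group means thus lay below log2 3, where signal above background was not shown.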

How the data were processed

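Total RNA of 8 cultures was hybridised to Affymetrix Mouse Gene ST arrays. The deposited values are log2 expression per probe set, made by the authors; the submitters' processing notes name RMA and affy (version and genome build not given in the sources used here). RMA brings all arrays to the same distribution of probe intensities, not of the probe set values used here, and can shrink differences at low intensity. Values ran from 0.0556 to 13.6, with medians of 5.89 to 6.02 per array over tested features, and were used without further normalization. The number of arrays limits the precision: the median SE of a change was 0.173 and its 95% interval reached 0.406 to either side.

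Of 41345 probe sets, 23521 were annotated to 1 gene, 1814 to several and 16010 to none; gene IDs of 23328 of the 23521 matched the GRCm38.p6 gene table. Genes with several probe sets (1082 of 22180) were represented by the brightest over 8 arrays. Genes below the 40th percentile (log2 2.3) were left out, which left 13308, and the shared probe sets of Slc6a9 and Smarcd3 were added. limma 3.58.1 in R 4.3.3 (lmFit, eBayes) fitted 1 mean per group over all 8 arrays, with 4 residual and 3.36 prior degrees of freedom, two-sided, Benjamini-Hochberg adjusted. The fit was tested on simulated data for the glucose comparison in control cells alone, which does not cover the other comparisons. The glucose comparisons share no arrays with each other, but both use the spread estimated over all 8 arrays, so their tests are not independent.

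All 10 members were named; from the wider lists, up to 4 called genes per list and comparison with the smallest p; and for each tested member the 3 nearest profiles. Members and lists were chosen with earlier results of these data known. The bound of 3 for signal above background was chosen after the data were seen. Alternatives covered centring, quantile normalization, filters, priors, samples in the fit, array weights, a replicate block, probe set choice and leaving out each array; the second Slc1a5 probe set was added after seeing the data. Replicate numbers were not used to pair samples, since the labels give no pairing. Promoter windows came from a RefSeq table and were used for sequence alone. No further steps were taken for background correction or scan batch, for which no information was at hand.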

Additional observations from a re-analysis of the deposited data

Results flagged for a closer look

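Slc1a4 was flagged because its knockdown and control arrays separated in opposite directions at the 2 glucose levels. At 1 mM both knockdown arrays (9.05 and 8.80) were below both control arrays (9.15 and 9.17), and at 10 mM both (7.37 and 7.45) were above them (6.98 and 6.74). The difference between the knockdown effects was 0.79 ± 0.21 on the log2 scale, and limma's interaction test did not call it (adjusted p = 0.473, between 0.191 and 0.809 over 18 alternatives, with the difference between 0.66 and 0.91). Of all 13310 tested features, 5.28% showed the same opposite separation without overlap.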

How the results depend on the processing

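In control myotubes 8 or 9 of the 9 members were called lower at 10 mM glucose in each of the 19 alternatives, and in knockdown myotubes 7 or 8. At 1 mM, 0 members were called for knockdown in any alternative. At 10 mM, 1 member (Slc1a4) was called with the intensity-dependent prior, with and without the robust fit (1 each), and 0 in the others, and the interaction called 0 members in all 18 alternatives run. No called member changed sign. With the replicate number as a block, 8 and 8 members were called lower in control and knockdown cells and 0 in the other comparisons, so the block changed no call of a member. It changed calls of Slc38a9 and Slc15a4 in control cells (adjusted p = 0.0559 and 0.0543). Differences between replicates correlated across genes at -0.0387 to 0.108 between groups. Weak correlations cannot show whether samples were paired, and the labels give no pairing. Counts over the whole array moved more: at 1 mM 200 features were called for knockdown, 135 to 599 over the alternatives with all arrays, 23 with only the 4 arrays compared and 31 to 130 without 1 array. At 10 mM these were 151, 70 to 468, 6, and 0 to 77. For glucose, they were 3373, 2853 to 4096, 2694, and 2047 to 3252 in control cells, and 3344, 2782 to 4023, 2830, and 1905 to 3187 in knockdown cells. Where 1 array was left out, the remaining array of that group was assumed to vary like the other groups. Signal near the lower end of the scale limits what can be said of Slc7a3 and of Slc7a11 at 10 mM.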
